A study of Mus musculus with 8 samples.

Results

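The glucocorticoid receptor gene Nr3c1, the steroid-activating enzyme gene Hsd11b1 and 8 genes that glucocorticoids are known to switch on in muscle (Tsc22d3, Fkbp5, Zbtb16, Angptl4, Sgk1, Cebpb, Cebpd and Ddit4) were followed in mouse soleus, a postural muscle of the lower leg. The members were taken by name: every non-control spot whose gene name in the scanner files equalled 1 of the 10 symbols. All 10 were found, with 17 probes among 56605, and 15 of these probes passed the filter on dim signals. Every member kept at least 1 probe, so all 10 stood among the 22221 genes tested.

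Glucocorticoids are steroid hormones of the adrenal cortex, in mice mainly corticosterone. Inside the cell the hormone binds Nr3c1, which is held ready by chaperones, moves to the nucleus and binds DNA at response elements, near which some genes are switched on and others, many of them inflammatory, are held down. Skeletal muscle is a main target: glucocorticoids favour protein breakdown and fuel mobilisation there and restrain the action of insulin, and Hsd11b1 regenerates active hormone from its inert keto form within the tissue.

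The samples were soleus muscles of male C57BL/6J mice on a high-fat diet, aged 8 weeks at the start and 14 weeks at sampling. In the P. gingivalis group (4 samples) the mice received Porphyromonas gingivalis, a bacterium of human gum disease, by mouth for 6 weeks, and in the saline group (4 samples) saline. Both groups carried the high-fat diet, so no sample shows the members on ordinary chow. The labels name no genetic change. Each sample's RNA was read on 1 array. Whether the arrays stand for separate mice is not stated in the labels, and the p-values cover only the spread among these 8 samples. A level is the log2 signal of a probe relative to the 75th percentile of its own array, and a difference is the P. gingivalis mean minus the saline mean on that scale.

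All 8 arrays lay on 1 slide, with the P. gingivalis arrays in column 1 and the saline arrays in column 2, so the side of the slide and the group cannot be told apart. Spots well above background numbered 32836 to 36769 of 59305 on the saline arrays and 37525 to 38068 on the P. gingivalis arrays. In the authors' deposited table each of the 8 sample columns held the values of the like-numbered array of the opposite group. Directions below are those of the sample records, and with the table's column names 10 of 11 member rows are lower in the P. gingivalis columns. All 7 slow fibre markers were well above background on all 8 arrays, and so were all 7 fast fibre markers, so detection alone does not single out soleus. Myh4, the myosin of the fastest fibres, was lowest on saline 1 (1.95) and P. gingivalis 3 (4.03). Saline 4 came next at 4.98, and the remaining arrays stood at 6.76 to 7.70. Results without saline 1 and P. gingivalis 3 are given where they matter. In these bulk samples, fewer cells of a type and less RNA per cell cannot be told apart.

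All 10 members had a higher mean in the P. gingivalis group (47.7% of all genes did), but 0 passed an adjusted p of 0.05 in limma with Benjamini-Hochberg adjustment (0.117% of all genes did, 26 of 22221). At an unadjusted p under 0.05 there were 4, against 19.7% of all genes, and all 4 were higher: Tsc22d3, Cebpb, Angptl4 and Fkbp5 (10.1% of all genes were higher at that p). The groups did not overlap for 1 member, Tsc22d3 (7.35% of all genes did not overlap and were higher). The median difference of the 10 was 0.34, against -0.01 over all genes. The differences ran from 0.03 for Sgk1 to 0.63 for Fkbp5. Leaving out any 1 array left the members' median between 0.26, without saline 1, and 0.42, without saline 3, while the count of genes past the threshold fell from 26 to between 2 and 6. Without saline 1 and P. gingivalis 3 together the members' median was 0.28, limma called 0 genes (3072 at an unadjusted p under 0.05), and members at an unadjusted p under 0.05 fell from 4 to 2.

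**Figure D1:**
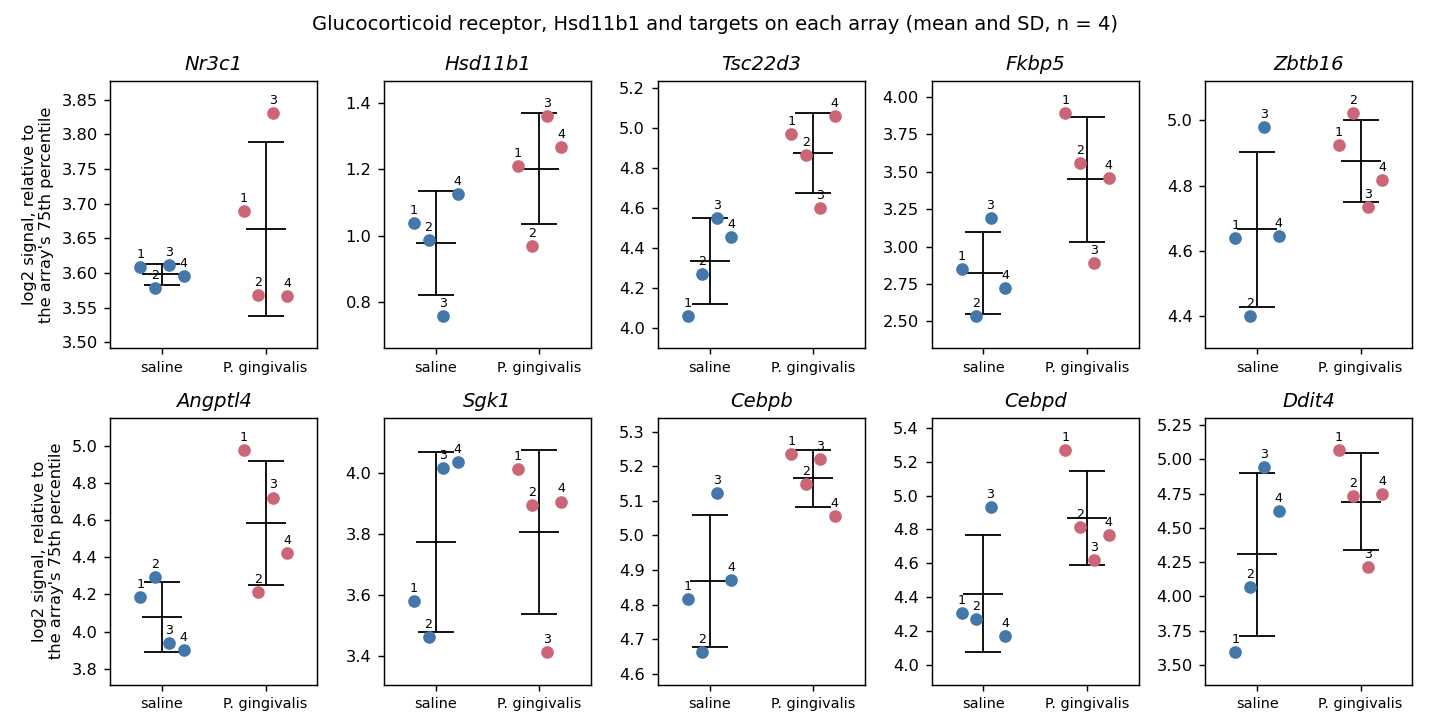
Level of each of the 10 genes on every array, as log2 signal relative to the array's 75th percentile (vertical axes, each with its own range). Points are arrays with their replicate number, blue for saline and red for P. gingivalis, and bars give the mean and SD of 4 arrays. Tsc22d3 is the 1 gene whose groups do not overlap, with saline up to 4.55 and P. gingivalis from 4.60, and the 4 saline points of Nr3c1 lie between 3.58 and 3.61.

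The receptor itself differed little. Nr3c1 stood at 3.61, 3.58, 3.61 and 3.60 on saline 1 to 4 and at 3.69, 3.57, 3.83 and 3.57 on P. gingivalis 1 to 4. The saline arrays were almost level, and the P. gingivalis arrays lay on both sides of them, with 1 and 3 above all saline arrays and 2 and 4 below. The means were 3.60 ± 0.015 (SD, n = 4) and 3.66 ± 0.13 (SD, n = 4), a difference of 0.07 ± 0.07 (SE), adjusted p = 0.633 in limma. The 95% interval ran from -0.10 to 0.23. Without P. gingivalis 3 the difference was 0.01, centring on the median of all spots gave 0.21, and a second Nr3c1 probe gave -0.04 ± 0.08 (SE).

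Hsd11b1 was read by 1 probe on chromosome 1 (195048169 to 195048228, minus strand, build mm9). Its level was 1.04, 0.99, 0.76 and 1.13 on saline 1 to 4 and 1.21, 0.97, 1.36 and 1.27 on P. gingivalis 1 to 4. Of the P. gingivalis arrays, 3 lay above every saline array and P. gingivalis 2 lay among them. The difference was 0.22 ± 0.11 (SE), adjusted p = 0.299 in limma, with a 95% interval of -0.03 to 0.48. It was 0.12 with normexp background correction, 0.088 with the deposited table's processing rebuilt and 0.37 with centring on the median of all spots. Hsd11b1 is also made by fibroblasts and adipocytes, so their markers were read beside it. The mean level of 6 fibroblast markers was lowest on saline 3 (2.42) and P. gingivalis 2 (2.43), the arrays on which Hsd11b1 was lowest, and reached 2.99 and 3.06 on P. gingivalis 3 and 4. The fibroblast mean was highest on saline 4 (3.13), where Hsd11b1 was 1.13, and was 2.98 on saline 2, where Hsd11b1 was 0.99. It ranged from 2.42 to 3.13 in saline and from 2.43 to 3.06 in P. gingivalis. The 8 adipocyte markers averaged 0.92 to 1.94 in saline and 0.99 to 1.90 in P. gingivalis, highest on saline 1 and P. gingivalis 2. All of these markers were well above background on all 8 arrays, and their part in the Hsd11b1 values was not tested. H6pd, which supplies the cofactor of the enzyme and was looked up after the other values were seen, differed by 0.14 ± 0.08 (SE), adjusted p = 0.347 in limma.

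The DNA in front of the members' genes was read where a RefSeq window was at hand. The receptor binds as a pair to an inverted repeat of the half-site TGTTCT. The half-site, and the full motif made of its reverse complement, any 3 bases and the half-site, were looked for on both strands in the 250 bases before each RefSeq start (build GRCm38.p6). A full motif also counts as a match of the half-site. Windows were held for 6 members (Hsd11b1, Tsc22d3, Fkbp5, Sgk1, Cebpb and Ddit4), 13 windows in all, and not for Nr3c1, Zbtb16, Angptl4 and Cebpd. The full motif was in 1 of these 13 windows and in 3 of 32851 windows of all genes (0.00913%), and the half-site in 4 of the 13 and in 5284 of all (16.1%). The 4 windows with a half-site belonged to Sgk1 and Tsc22d3. Both genes had several windows, so these counts are over windows and not over members. Shown are the Sgk1 window with the full motif, from the member whose groups differed least, and a window each of Tsc22d3 and Fkbp5, the members whose groups differed most. The Tsc22d3 window shown is the one with a half-site, and the other Tsc22d3 windows held no match. Capitals mark the full motif, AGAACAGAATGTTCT, in Sgk1 and the half-site in Tsc22d3, and the Fkbp5 window held no match. A match describes letters and is no evidence of binding.
Sgk1, chr10:21993640-21993889, plus strand, motif 189 to 175 bases before the start: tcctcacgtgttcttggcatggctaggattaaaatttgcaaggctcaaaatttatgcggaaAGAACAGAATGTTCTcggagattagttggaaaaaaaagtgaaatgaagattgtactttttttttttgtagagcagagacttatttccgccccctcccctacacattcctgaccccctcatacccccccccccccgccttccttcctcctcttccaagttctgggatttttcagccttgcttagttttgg
Tsc22d3, chrX:140600523-140600772, minus strand, half-site 185 to 180 bases before the start: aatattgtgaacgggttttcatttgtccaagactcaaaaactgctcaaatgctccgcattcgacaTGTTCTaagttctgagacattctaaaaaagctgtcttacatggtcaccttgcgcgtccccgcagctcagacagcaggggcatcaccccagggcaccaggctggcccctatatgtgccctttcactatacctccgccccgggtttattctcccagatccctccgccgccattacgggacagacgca
Fkbp5, chr17:28486150-28486399, minus strand: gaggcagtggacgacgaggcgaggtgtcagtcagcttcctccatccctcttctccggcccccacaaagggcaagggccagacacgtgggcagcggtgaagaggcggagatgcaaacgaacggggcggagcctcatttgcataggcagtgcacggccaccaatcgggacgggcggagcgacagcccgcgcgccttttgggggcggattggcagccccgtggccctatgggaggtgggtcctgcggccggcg

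Tsc22d3 encodes GILZ, a leucine zipper protein that mediates part of the anti-inflammatory action of glucocorticoids. Its level was 4.06, 4.27, 4.55 and 4.46 on saline 1 to 4 and 4.97, 4.87, 4.60 and 5.06 on P. gingivalis 1 to 4. Every P. gingivalis array lay above every saline array, with saline 3 and P. gingivalis 3 nearest to each other. The means were 4.34 ± 0.22 (SD, n = 4) and 4.87 ± 0.20 (SD, n = 4), a difference of 0.54 ± 0.14 (SE), or 1.45-fold, with adjusted p = 0.106 in limma (unadjusted p = 0.00415). A second probe, 137074801 to 137074860 on chromosome X in build mm9 against 137074094 to 137074153 for the first, both on the minus strand, gave 0.50 ± 0.12 (SE) with groups that again did not overlap. These 2 probes share their RNA samples and so do not count as repeats. Another probe, named from an Ensembl transcript, was not well above background on any array. With any 1 array left out the difference stayed between 0.45 and 0.63, and without saline 1 and P. gingivalis 3 it was 0.54. Over all genes the call depends on the settings: with no filter on dim probes the same difference had adjusted p = 0.0460, and centring on the median of all spots gave 0.69 with adjusted p = 0.0286, both in limma.

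Among 19410 genes well above background on all 8 arrays, those whose levels followed Tsc22d3 most closely over the 8 arrays were Metap1d, a mitochondrial methionine aminopeptidase (Pearson r = 0.990), Mettl7a3 (0.987), Polr3a, the large subunit of RNA polymerase III (0.984), Pfkm, the muscle phosphofructokinase (0.976), and Myl3, a slow myosin light chain (0.972). These r values describe 8 arrays from 1 slide that fall into groups, and carry no test. Their differences were smaller than that of Tsc22d3, from 0.14 for Metap1d to 0.26 for Mettl7a3, with adjusted p from 0.132 to 0.219 in limma. The other members came later in this order. Fkbp5 was at place 560 (r = 0.837), Ddit4 at 758 (r = 0.809) and Cebpd at 1259 (r = 0.756), and Nr3c1 at 8646 (r = 0.05).

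Fkbp5 encodes a co-chaperone that is induced by the receptor and in turn lowers the receptor's affinity for hormone. Its level was 2.85, 2.54, 3.19 and 2.72 on saline 1 to 4 and 3.89, 3.56, 2.89 and 3.46 on P. gingivalis 1 to 4. P. gingivalis 1, 2 and 4 lay above all saline arrays, and P. gingivalis 3 lay below saline 3. The difference was 0.63 ± 0.22 (SE), or 1.54-fold, with adjusted p = 0.186 in limma (unadjusted p = 0.0230). It was 0.81 without P. gingivalis 3, 0.48 without P. gingivalis 1 and 0.82 without saline 1 and P. gingivalis 3.

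The 3 Fkbp5 probes lie apart on chromosome 17 (minus strand, build mm9). The probe used above covers 28536060 to 28536119, and another at 28574995 to 28575054 gave 0.77 ± 0.30 (SE), with P. gingivalis 3 and 4 below saline 3. The third, named from an Ensembl transcript at 28634702 to 28634761, gave 0.73 ± 0.16 (SE) and its groups did not overlap, with adjusted p = 0.0803 over all kept probes in limma. The probe used above had means of 2.8 in saline and 3.4 in P. gingivalis. The third probe was much fainter, at -3.4 and -2.7, though well above background on all 8 arrays. On that probe P. gingivalis 3 deviated from the mean of the 8 arrays by 0.28, where on the other 2 probes it did so by -0.25 and -0.19. In the authors' deposited table the Ensembl-named probe is the only 1 of 11 member rows with an adjusted p under 0.05 (0.0450, log2 difference -0.67 with the table's column names), where 431 of 28250 rows (1.53%) pass.

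**Figure D2:**
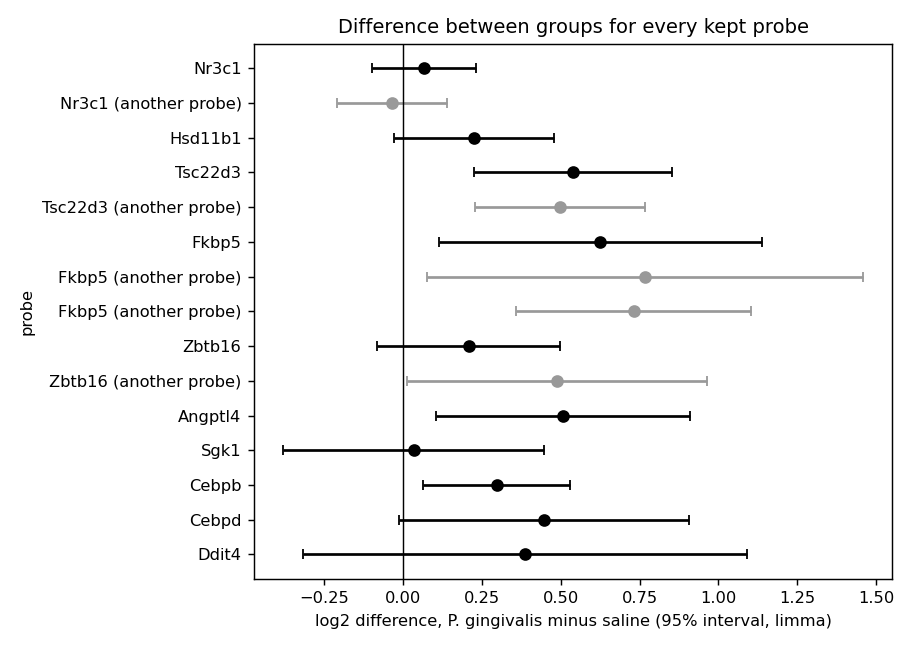
Difference between groups for each of the 15 kept probes, as P. gingivalis minus saline on the log2 scale (horizontal axis), with 95% intervals from limma. Black points are the probes used for the genes and grey points other probes of the same gene. The second Nr3c1 probe (-0.04) is the 1 probe below 0, and the 3 Fkbp5 probes lie at 0.63, 0.77 and 0.73.

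Zbtb16 encodes PLZF, a zinc finger repressor. Its level was 4.64, 4.40, 4.98 and 4.65 on saline 1 to 4 and 4.93, 5.02, 4.74 and 4.82 on P. gingivalis 1 to 4. All 4 P. gingivalis arrays lay above saline 1, 2 and 4, while saline 3 lay above 3 of them. The difference was 0.21 ± 0.12 (SE), adjusted p = 0.394 in limma. It was 0.12 without saline 2 and 0.31 without saline 3, and a second probe gave 0.49 ± 0.21 (SE).

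Angptl4 encodes a secreted inhibitor of lipoprotein lipase that is also a target of the fatty acid receptors of the PPAR family. Its probe lies on chromosome 17 from 33911880 to 33911939 (minus strand, build mm9). The level was 4.18, 4.29, 3.94 and 3.90 on saline 1 to 4 and 4.98, 4.21, 4.72 and 4.42 on P. gingivalis 1 to 4. P. gingivalis 1, 3 and 4 lay above all saline arrays, and P. gingivalis 2 lay between saline 1 and saline 2. The difference was 0.51 ± 0.17 (SE), or 1.42-fold, with adjusted p = 0.178 in limma (unadjusted p = 0.0198), and it stayed between 0.38 and 0.63 with any 1 array left out. Centring on the median of all spots gave 0.66 with adjusted p = 0.0444 in limma. Of 10 other PPAR targets, all tested, 8 were higher (47.7% of all genes were) and 2 lower, 0 passed the adjusted threshold by limma, and the median was 0.12. The 3 with the smallest p were Cpt1b, which brings fatty acids into mitochondria (0.19 ± 0.07 SE), Fabp3, the muscle fatty acid binding protein (0.11 ± 0.06 SE), and Ucp3, a mitochondrial carrier (0.22 ± 0.11 SE), with adjusted p of 0.187, 0.320 and 0.337. Groups did not overlap for 2 of the 10, Cpt1b and Fabp3, where 7.35% of all genes did not overlap and were higher.

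Sgk1 encodes a kinase close to Akt that is induced rapidly by steroids and by other stimuli. Its level was 3.58, 3.46, 4.01 and 4.03 on saline 1 to 4 and 4.01, 3.89, 3.41 and 3.91 on P. gingivalis 1 to 4. The saline arrays formed a low pair and a high pair, and P. gingivalis 3 was the lowest of all 8. The difference was 0.03 ± 0.18 (SE), adjusted p = 0.935 in limma, and its 95% interval ran from -0.38 to 0.45. It took the other sign when saline 1 (-0.03), saline 2 (-0.07), the first P. gingivalis array (-0.04) or the fourth (-0.00026) was left out, and was 0.16 without P. gingivalis 3 and 0.10 without saline 1 and P. gingivalis 3. A second probe, named from an Ensembl transcript, was well above background on 2 saline arrays and on 0 P. gingivalis arrays and was not tested.

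Cebpb and Cebpd encode transcription factors of the C/EBP family that glucocorticoids induce in muscle and fat. For Cebpb the level was 4.82, 4.66, 5.12 and 4.87 on saline 1 to 4 and 5.23, 5.15, 5.22 and 5.06 on P. gingivalis 1 to 4. Only saline 3 and P. gingivalis 4 crossed. The difference was 0.30 ± 0.10 (SE), adjusted p = 0.173 in limma (unadjusted p = 0.0184), from 0.23 to 0.38 with any 1 array left out, and centring on the median of all spots gave 0.45 with adjusted p = 0.0478 in limma. For Cebpd the level was 4.31, 4.27, 4.93 and 4.17 on saline 1 to 4 and 5.27, 4.82, 4.62 and 4.77 on P. gingivalis 1 to 4. Here saline 3 lay above P. gingivalis 2, 3 and 4, and the other 3 saline arrays lay below all 4. The difference was 0.45 ± 0.20 (SE), adjusted p = 0.265 in limma, ranging from 0.31 without P. gingivalis 1 to 0.62 without saline 3.

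Ddit4 encodes REDD1, an inhibitor of mTORC1 that responds to glucocorticoids, low oxygen and energy shortage. Its level was 3.59, 4.07, 4.94 and 4.62 on saline 1 to 4 and 5.07, 4.73, 4.22 and 4.75 on P. gingivalis 1 to 4. The saline arrays spread over a wider range than the P. gingivalis arrays, with saline 1 the lowest of all and saline 3 above all P. gingivalis arrays but 1. The SDs were 0.60 in saline and 0.35 in P. gingivalis (n = 4 each), and its pooled spread within groups was at percentile 92.7 of all genes. The difference was 0.39 ± 0.31 (SE), adjusted p = 0.514 in limma. It was 0.15 without saline 1, 0.60 without saline 3 and 0.31 without saline 1 and P. gingivalis 3.

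Across the members the same arrays tended to stand high or low. P. gingivalis 1 was above the gene's mean over the 8 arrays for 10 of 10 members and was the highest array for 5, while saline 1 and saline 2 were below that mean for all 10. Saline 3 was the highest saline array and P. gingivalis 3 the lowest P. gingivalis array for 5 members, namely Tsc22d3, Fkbp5, Zbtb16, Cebpd and Ddit4, a combination found in 6.60% of all genes. Saline 3 stood above P. gingivalis 3 for 5 members, by 0.73 for Ddit4 and 0.60 for Sgk1, and over all genes it did so for 50.5%. Hsd11b1 and Angptl4 ran the other way, with saline 3 minus P. gingivalis 3 at -0.60 and -0.79. This pattern was picked out after the values were seen, members share their arrays, and no test was made of it.

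**Figure D3:**
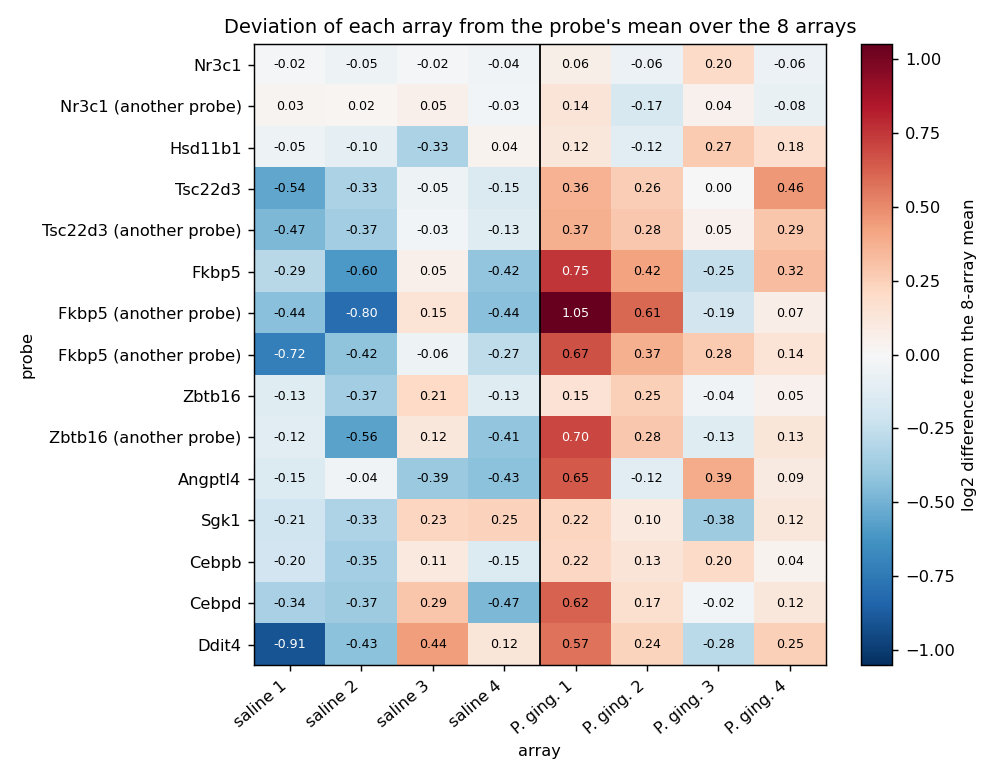
Deviation of each array (horizontal axis) from the probe's mean over the 8 arrays, in log2 units (colour and printed value), for the 15 kept probes (vertical axis), with saline left and P. gingivalis right of the line. P. gingivalis 1 is above the mean for all 15 probes, saline 3 is up to 0.44 above it for Ddit4, and P. gingivalis 3 deviates by 0.39 for Angptl4 and by -0.38 for Sgk1.

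**Figure D4:**
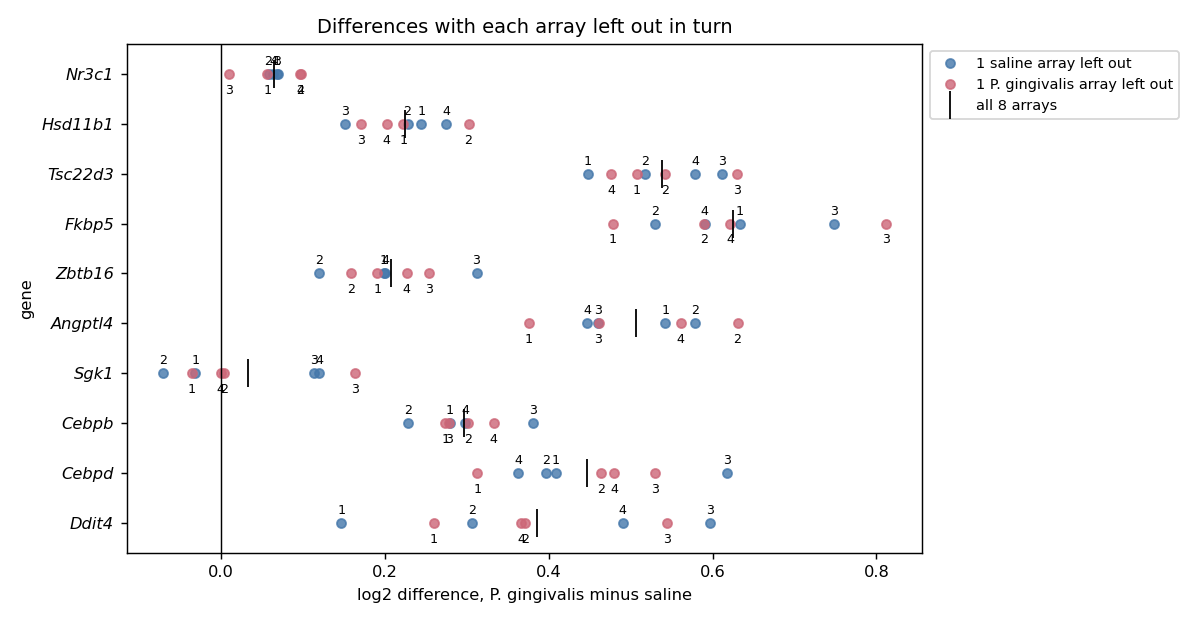
Difference for each gene (P. gingivalis minus saline, log2, horizontal axis) after leaving out 1 array, whose number stands beside the point, blue for saline and red for P. gingivalis; the black bar is the difference over all 8 arrays. Sgk1 crosses 0, Ddit4 moves from 0.15 without saline 1 to 0.60 without saline 3, and Tsc22d3 stays between 0.45 and 0.63.

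Genes of the proteins that work with the receptor differed in both directions. Of 9 chaperones and co-chaperones, all tested, 3 were higher and 6 lower (52.3% of all genes were lower), with a median of -0.01 and 0 past the adjusted threshold by limma. At an unadjusted p under 0.05, 2 were higher and 1 lower (10.1% and 9.66% of all genes). Groups did not overlap for 2 higher and 2 lower genes of the 9 (7.35% and 6.07% of all genes). Hsp90aa1, the stress-induced form of the chaperone that holds the receptor, had a lower mean with groups that did not overlap (-0.51 ± 0.15 SE, adjusted p = 0.131 in limma). Hspa8, the constitutive Hsp70, stood at 0.20 ± 0.07 (SE), also without overlap, and the phosphatase Ppp5c at 0.27 ± 0.08 (SE). Of 11 cofactors, all tested, 8 were higher (47.7% of all genes were) and 3 lower, with a median of 0.13 and 0 past the adjusted threshold by limma. At an unadjusted p under 0.05 there were 4, all higher (10.1% of all genes were). The groups did not overlap for 4 of the 11, all higher (7.35% of all genes did not overlap and were higher). Ep300, a histone acetyltransferase, was at 0.48 ± 0.09 (SE, adjusted p = 0.0668 in limma). Nrip1, a corepressor of nuclear receptors that is known to restrain oxidative metabolism in muscle, was at 0.40 ± 0.09 (SE, adjusted p = 0.0834 in limma), and the arginine methyltransferase Carm1 at 0.17 ± 0.06 (SE).

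For hormone supply and the related mineralocorticoid receptor, 5 of 7 genes could be tested, H6pd among them, 2 higher and 3 lower, with a median of -0.04 and 0 past the adjusted threshold by limma. At an unadjusted p under 0.05, Srd5a1 was lower (9.66% of all genes were) and Nr3c2 higher (10.1% of all genes were). Srd5a1, a 5-alpha-reductase that inactivates glucocorticoids, was at -0.61 ± 0.23 (SE, adjusted p = 0.209 in limma). Its levels were low, with means of -3.62 in saline and -4.23 in P. gingivalis. Nr3c2, the mineralocorticoid receptor, was at 0.21 ± 0.08 (SE, adjusted p = 0.225 in limma), and Abcb1a, a transporter that exports steroids, at -0.18 ± 0.14 (SE). Hsd11b2, which inactivates the hormone, and Serpina6, its carrier in blood, were well above background on 0 arrays.

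Of 28 other genes that glucocorticoids induce, all tested, 22 were higher (47.7% of all genes were) and 6 lower, with a median of 0.21. The list was chosen with earlier results of these data known. At an unadjusted p under 0.05 there were 6, all higher (10.1% of all genes were), and groups did not overlap for 2 of the 28, close to the 7.35% of all genes. None passed the adjusted threshold by limma. Foxo3, a transcription factor of muscle atrophy, was at 0.30 ± 0.06 (SE, adjusted p = 0.0654 in limma), and no saline array reached any P. gingivalis array, with saline between -0.12 and 0.01 and P. gingivalis between 0.15 and 0.30. Klf15, a factor for amino acid breakdown that the receptor switches on directly, was at 0.39 ± 0.11 (SE), with saline 3 again the highest saline array (3.68) and above the lowest P. gingivalis array (3.61). Lpin1, a phosphatidate phosphatase, was at 0.31 ± 0.11 (SE) without overlap. Arrdc2, an arrestin domain protein named after its values were seen, had the highest difference of the 28 at 1.01 ± 0.38 (SE, adjusted p = 0.209 in limma). Its levels were 2.34, 2.58, 3.61 and 3.29 on saline 1 to 4 and 4.61, 4.20, 3.10 and 3.93 on P. gingivalis 1 to 4, with saline 3 high and P. gingivalis 3 low, as for Fkbp5 and Ddit4.

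Of 10 genes that glucocorticoids repress, 7 could be tested and all 7 had a lower mean (52.3% of all genes did), with a median of -0.60. This list too was chosen with earlier results of these data known. At an unadjusted p under 0.05 there were 4 (9.66% of all genes were lower at that p), groups did not overlap for 2 (6.07% of all genes did not overlap and were lower), and 0 passed the adjusted threshold by limma. Icam1, an adhesion molecule for leukocytes, stood between -0.73 and -0.0019 in saline and between -1.17 and -0.78 in P. gingivalis, a difference of -0.72 ± 0.16 (SE, adjusted p = 0.0849 in limma). Nos2, the inducible nitric oxide synthase, was at -0.32 ± 0.09 (SE), also without overlap. Cxcl1, a neutrophil-attracting chemokine, was at -1.57 ± 0.52 (SE), with saline 1 at -1.41 far above saline 3 at -4.02. All 7 had group means below 0, the array's 75th percentile, from -0.30 (Icam1, saline) down to -6.07 (Ccl7, P. gingivalis). On the probes used for the genes, every member's group means were positive. Ccl7 was well above background on 4 arrays, and Icam1, Nos2, Cxcl1, Vcam1, Ccl2 and Tnf were on all 8. With no filter on dim probes, 4642 genes were lower and 512 higher past the adjusted threshold by limma. The median of all genes was then -0.10. With only probes well above background on all 8 arrays, 116 genes were lower and 145 higher past that threshold. The median was then -0.0092. The part of signal level in the lower means of these 7 repressed genes was not tested. Markers of neutrophils, endothelium and macrophages, which can also carry such transcripts, were read beside these genes. The mean of 4 of 5 neutrophil markers was 0.42 and 0.33 on saline 1 and 2, -1.08 and -0.84 on saline 3 and 4, and -1.99 to -1.55 in P. gingivalis. All 4 had lower means, with a median difference of -1.77. At an unadjusted p under 0.05 in limma there were 4 (9.66% of all genes were lower at that p), and groups did not overlap for 0. Of these 4 markers, 1 was not well above background on every array. Retnlg was well above background on 2 arrays at most and was not tested. Of 6 endothelial markers 2 had higher and 4 lower means, and groups did not overlap for 2 of the lower ones (6.07% of all genes). These were Egfl7 (-0.40 ± 0.07 SE, adjusted p = 0.0594 in limma) and Kdr, a vascular growth factor receptor (-0.55 ± 0.10 SE, adjusted p = 0.0643 in limma), both named after their values were seen. Their p-values were smaller than that of Icam1. Pecam1 (0.18 ± 0.07 SE, unadjusted p = 0.0426 in limma) and Tie1 (0.18 ± 0.11 SE) were the 2 with higher means. The mean level of the 6 was 2.05 to 2.17 in saline and 1.83 to 2.13 in P. gingivalis, and that of 6 macrophage markers -0.24 to 0.91 and -0.14 to 0.38. Of the macrophage markers 1 had a higher and 5 a lower mean, with a median difference of -0.31 and 0 at an unadjusted p under 0.05 in limma. The part of these cells in the values was not tested. Il6, Il1b and Ptgs2 were well above background on too few arrays to be tested.

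**Figure D5:**
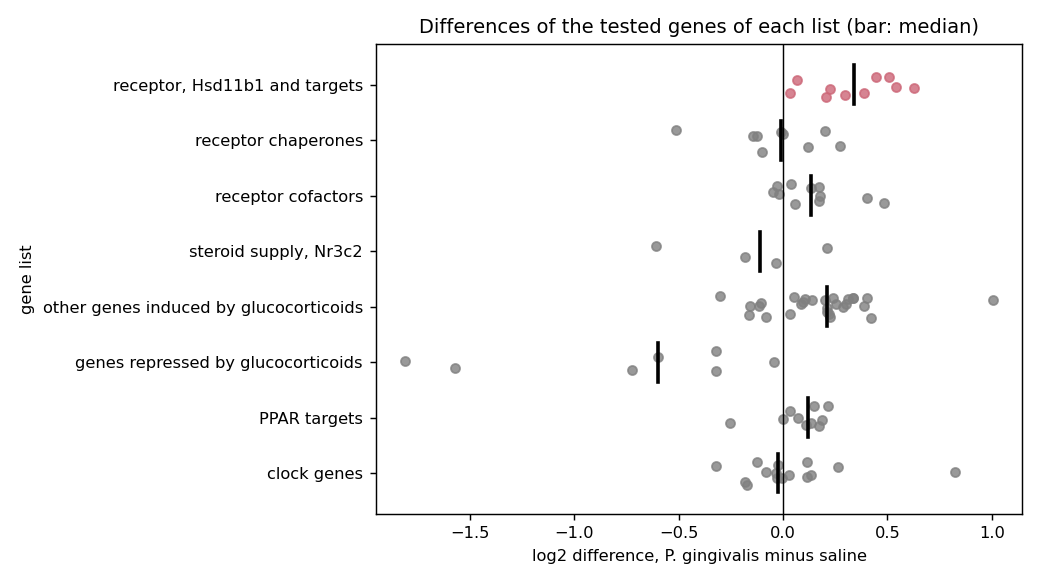
Difference of every tested gene (points) in each gene list (vertical axis; H6pd is not drawn), as P. gingivalis minus saline on the log2 scale (horizontal axis), with a bar at the list's median. The median is 0.34 for the receptor, Hsd11b1 and targets (red), against -0.01 for receptor chaperones and -0.02 for clock genes. It is 0.21 for other genes induced by glucocorticoids and -0.60 for genes they repress. All tested repressed genes are dim, with negative mean levels in both groups.

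Glucocorticoids also act on the muscle clock, so clock genes were read as well. Of 16 listed, 15 could be tested, 6 higher and 9 lower, with a median of -0.02, and 0 passed the adjusted threshold by limma. Nfil3, a repressor of clock output genes, was at 0.83 ± 0.17 (SE, adjusted p = 0.0781 in limma). Nr1d2, a nuclear receptor of the clock loop, was at 0.26 ± 0.08 (SE), and the period gene Per3 at -0.32 ± 0.11 (SE). The groups did not overlap for these 3 of the 15, 2 higher and 1 lower (7.35% and 6.07% of all genes). The hour of sampling is not given in the sources used here.

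Markers of the fibres themselves also had higher means. All 7 slow fibre markers were higher in mean (47.7% of all genes were), with a median of 0.14. Their mean level was 8.43 to 8.54 in saline and 8.58 to 8.68 in P. gingivalis. At an unadjusted p under 0.05 in limma there were 4 of these 7 (10.1% of all genes were higher at that p). Groups did not overlap for 4 of the 7 (7.35% of all genes did not overlap and were higher). All 7 fast fibre markers were higher in mean too, with a median of 0.14 and mean levels of 6.06 to 7.67 and 6.66 to 7.79. Of the fast markers 0 had an unadjusted p under 0.05, and groups did not overlap for 1. All 5 red blood cell markers had higher means, with a median of 0.57 and mean levels of 3.87 to 5.45 and 4.99 to 5.65, lowest on saline 3. Of all marker genes tested, 0 passed the adjusted threshold by limma, and their part in the members' values was not tested.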

How the data were processed

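The deposited spot intensity values are background-subtracted signals, made with Agilent Feature Extraction 11.0.1.1 per the file headers. Version 11.1 is the one in the submitters' processing notes. Total RNA (200 ng) was labelled with Cy3, and probe positions refer to mouse build mm9, per the file headers. No mm9 gene models were used here, so probes are placed by position alone. The members and lists were chosen with earlier results of these data known.

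Control spots and flagged spots were left out (239 probes lost on at least 1 array), spots of 1 probe averaged, the log2 taken and the 75th percentile of each array over its non-control spots subtracted. Probes well above background on at least 4 arrays were kept (33636 of 56605), and a gene was read from its kept probe with the highest mean. The test was that of limma 3.58.1 (R 4.3.3, lmFit and eBayes, no covariate, two-sided), adjusted by Benjamini-Hochberg over 22221 genes. In data simulated for this comparison over 22221 genes, 46% of genes given a log2 change of 0.5 were called, 82% at 1, 96% at 2 and 98% at 3 (50 genes each), with 9 false calls. Named are all members, from each pathway list the genes past the threshold or else the 3 with the smallest p, and the 5 genes most correlated with Tsc22d3. Symbols and promoter windows came from RefSeq tables of GRCm38.p6, and windows were cut with Python 3.11.15.

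The authors' deposited table gives log2 values and p-values for 28250 rows, and its columns t and B, which are deposited as a score per row, were left aside. The table could be rebuilt from the scanner files within 1e-06 on the log2 scale with normexp (offset 16), quantile normalization, a minimum of 1.1 times the negative controls' 95th percentile (on at least 4 arrays) and a mean per accession. These steps gave equal values and are not recorded in a header. Pairs of arrays of 1 group had correlations of 0.989 to 0.995, and pairs across groups 0.989 to 0.992. The 75th percentiles of the arrays lay between 648 and 764, lowest on P. gingivalis 2, which the file headers mark as still to be evaluated. With 4 arrays a group, their number limits the precision. The alternatives changed the background correction, the scaling, filters, probe rule, variance models, array weights, the replicate block and each array left out.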

Additional observations from a re-analysis of the deposited data

Results flagged for a closer look

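Among 72 groups of 4 arrays looked at, 2 held an array far from the other 3, and chance gives about 1 such group in 20. Both were saline 1. Nos2, a gene that glucocorticoids repress, stood at -0.92 there and between -1.32 and -1.27 on the other saline arrays. Ucp3, a PPAR target, stood at 1.63 there and between 2.03 and 2.11 on the others. No member gene held such an array in either group.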

How the results depend on the processing

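Of 210 member values under 21 alternatives, 199 kept their direction and side of the threshold, 4 passed it and 7 turned, all 7 of Sgk1. Sgk1 was at -0.0066 with array weights, -0.0072 with normexp and -0.039 with the deposited table's processing rebuilt, where the cause was not tested. Tsc22d3 passed when dim probes were not filtered (0.54, limma's adjusted p = 0.0460), and centring on the median of all spots, chosen after seeing the data, passed Tsc22d3 (0.69), Angptl4 (0.66) and Cebpb (0.45); that centring moved the median of all genes from -0.01 to 0.14, and the members' median less that of all genes was 0.35 with and without it. With no filter the median of all genes was -0.10. Without passing the threshold, values over 1.5 times away were Nr3c1 with its probes averaged (0.015) and with the table's processing (0.014), Hsd11b1 with normexp (0.12) and the table's processing (0.088), and Zbtb16 with its probes averaged (0.35) and the table's processing (0.37). Centring on all spots gave 0.21 for Nr3c1, 0.37 for Hsd11b1, 0.36 for Zbtb16 and 0.18 for Sgk1, and median centring 0.056 and quantile normalization 0.019 for Sgk1. The count of genes past the threshold by limma, 26 (8 higher, 18 lower), was 199 with array weights (109 and 90), 9 with a gene's probes averaged (2 and 7), 91 with median centring over kept probes (57 and 34), 2385 over all spots (2290 and 95), 5154 with no filter (512 and 4642), 453 with normexp (271 and 182), 261 when every array had to be well above background (145 and 116), 330 with the table's processing (237 and 93), 221 with quantile normalization (159 and 62) and 567 with trended and robust variance (347 and 220). It was 0 without saline 1 and P. gingivalis 3, also chosen after seeing the data (3072 at an unadjusted p under 0.05).

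With each array left out in turn the count was 2 to 6. Ranges of the difference were 0.01 to 0.10 for Nr3c1, 0.15 to 0.30 for Hsd11b1, 0.45 to 0.63 for Tsc22d3, 0.48 to 0.81 for Fkbp5, 0.12 to 0.31 for Zbtb16, 0.38 to 0.63 for Angptl4, -0.071 to 0.16 for Sgk1, 0.23 to 0.38 for Cebpb, 0.31 to 0.62 for Cebpd and 0.15 to 0.60 for Ddit4, and 0.26 to 0.42 for the members' median. The groups share replicate numbers, but same-numbered arrays correlated in their deviations at 0.06, -0.06, -0.04 and 0.23, and 3 of 8 arrays were closest to their own number. With a replicate block limma called 0 genes (4432 at an unadjusted p under 0.05), and Tsc22d3 had adjusted p = 0.189. With 4 arrays a group on 1 slide, a difference as small as those of most members could often be missed.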
